A study of Phalaenopsis x intermedia with 4 samples.

Results

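The SNPs described here lie on chromosome 2 of the Phalaenopsis genotype table, carry exactly 2 base alleles and have no call in more than 20% of the 92 plant columns. They are named sparsely called SNPs below. There were 10246 of them, out of 13802 chromosome 2 SNPs with 2 base alleles and 115866 entries in the whole table. The rule used missing calls and alleles only, not genotypes. At its limit, 158 SNPs with no call in 19 plants lay just inside, and 168 SNPs with no call in 18 plants lay just outside. The remaining 3556 SNPs of chromosome 2 are named widely called.

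The plants were F1 progeny of P. Intermedia, a cross of P. aphrodite (Pa) with P. equestris (Pe), and both parents were genotyped as 1 column each. Leaf DNA was cut with HinP1I or ApeKI, each with HaeIII, and sequenced as 4 libraries, 1 for each plate (1 and 2) of each enzyme pair. Genotyping-by-sequencing (GBS) reads only fragment ends next to the cut sites, and the authors merged all calls into 1 table with no read depth and no record of the library behind a call. Of the 90 progeny, 60 had no call at 2.89% to 45.8% of the sparsely called SNPs (median 4.75%) and were used, whereas the other 30 had no call at 74.3% to 98.5% and were not.

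In a cross of heterozygous plants, each parent passes on 1 of its 2 chromosome copies, joined from both by crossing over. SNPs close together on a chromosome are therefore usually inherited together, which is measured as linkage disequilibrium (LD), here the squared correlation r2 of allele dosage over plants. SNPs on different chromosomes are normally inherited independently. Where a SNP is heterozygous in only 1 parent, about equal numbers of heterozygous and homozygous progeny follow from Mendelian transmission.

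A group of 4 progeny stood apart and touches several results. PaPe63 and PaPe89 had identical calls at 85.7% of the SNPs, and PaPe52 and PaPe76 at 74.9%, against a median of 52.3% and a highest value of 69.5% over the 1764 pairs outside this group of 4. Between the pairs, PaPe63 and PaPe76 were identical at only 24.4% and held opposite homozygotes at 48.8% of the SNPs, against a median of 21.8% over those 1764 pairs. These 4 plants also differed from the rest at the 515 sparsely called SNPs where at least 50 of the 60 plants were heterozygous. PaPe76, PaPe52, PaPe63 and PaPe89 were homozygous at 99.4%, 98.8%, 97.3% and 97.3% of them, against 32.0% in the next plant and 1.75% at the median. Several values that these plants enter are given with and without them. The shares by parental class, of allowed calls and of heterozygous calls by window are given with them only.

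The sparsely called SNPs lay almost entirely in the first 105 Mb of the chromosome's positions. The first 21 windows of 5 Mb held 9829 of them (95.9%), and the other 24 windows held 417. The break was abrupt, with 714 SNPs at 100 to 105 Mb and 39 at 105 to 110 Mb. The limit of 105 Mb was chosen after these counts were seen. The widely called SNPs showed no such break, with 1519 (42.7%) in the first 105 Mb and 2037 beyond it.

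Within the first 105 Mb the counts had 2 peaks and a further rise at the end. The window at 10 to 15 Mb held 1260 SNPs, the most of all 45 windows, followed by 959 at 65 to 70 Mb and 954 at 15 to 20 Mb. Between these peaks the counts were 172 in each of the windows at 50 to 55 and 55 to 60 Mb, the fewest in this stretch. The 5 fullest windows held 46.9% of all sparsely called SNPs. The fewest over the whole chromosome were 2 at 120 to 125 Mb, 2 at 200 to 205 Mb and 3 at both 135 to 140 Mb and 215 to 220 Mb. Over the first 21 windows, sparsely and widely called SNP numbers were hardly related (r = 0.10, a description over 21 windows of 1 chromosome).

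**Figure D1:**
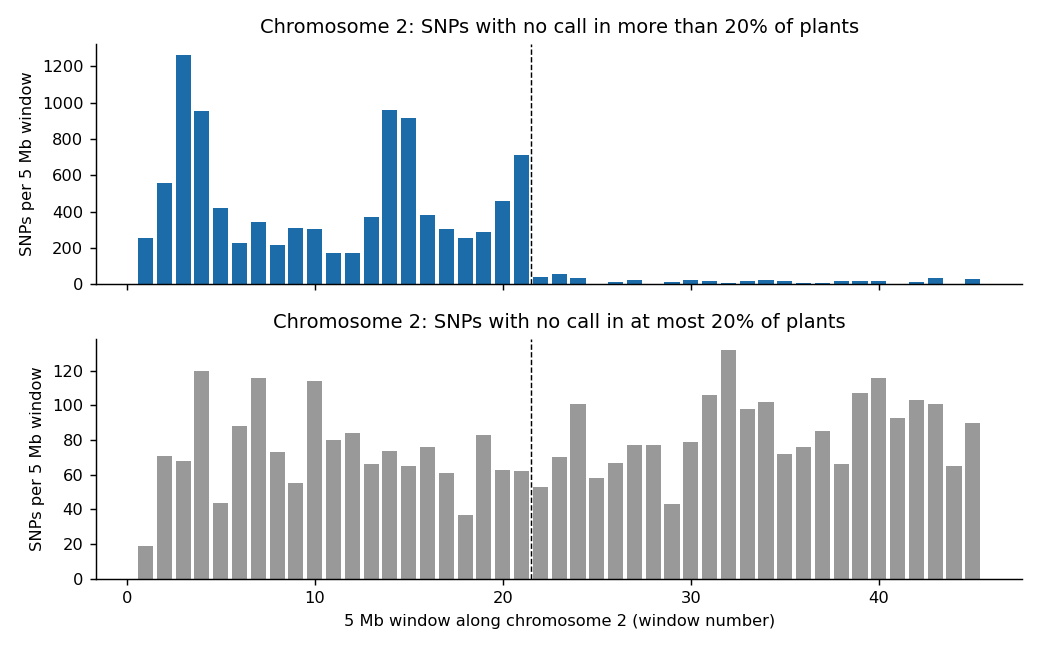
Number of SNPs in each of the 45 windows of 5 Mb along chromosome 2, sparsely called SNPs above and widely called SNPs below, on separate linear scales; the dashed line marks 105 Mb. Sparsely called SNPs range from 172 to 1260 per window left of the line and from 2 to 56 right of it, while widely called SNPs range from 19 to 120 and from 43 to 132.

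SNPs came in short groups, as is usual for GBS, where 1 fragment end can hold several. Adjacent sparsely called SNPs were 28 bp apart at the median. Joining SNPs that lay within 1 kb of the next gave 2719 clusters with a median of 3 SNPs, up to 37 in 1 cluster and 666 with a single SNP. The first 21 windows held 53 to 304 clusters each, and the other 24 held 2 to 19, and the break at 105 Mb was thus also present in clusters.

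The number of plants without a call divided the sparsely called SNPs into 3 subsets. The largest, with no call in 29 to 49 plants, held 9156 SNPs (89.4%), of which 22 lay beyond 105 Mb. At the median these SNPs were called in 58 of the 60 progeny used and in 0 of the other 30. A second subset of 810 SNPs had no call in 19 to 28 plants, was called in a median of 56 of the 60 and 13 of the 30 plants, and had 228 SNPs beyond 105 Mb. The third held 280 SNPs with no call in 81 to 90 plants, called in a median of 4 of the 60 progeny, and 167 of them lay beyond 105 Mb. No SNP lay between 49 and 81 missing plants.

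These subsets barely shared LD, although their positions overlap. For pairs closer than 1 Mb, taken from 1 SNP per 5 kb, mean r2 was 0.166 within the subset of 29 to 49 missing plants (62284 pairs). It was 0.027 between that subset and SNPs with 19 to 28 missing plants (12017 pairs), and 0.020 between it and the widely called SNPs (24583 pairs). Within the subset of 19 to 28 missing plants it was 0.031 (1108 pairs). The widely called SNPs had a mean r2 of 0.082 among themselves at the same distances. For comparison, sparsely called SNPs of chromosome 2 had a mean r2 of 0.026 with those of other chromosomes. So the 2 larger sets of SNPs on chromosome 2 each showed LD with close neighbours of their own set, and almost none with close neighbours of the other set.

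The reach of the 2 kinds of SNPs also differed on the rest of the genome. On chromosome 2 the 99th percentile of position was 104 Mb for SNPs with 29 to 49 missing plants and 222 Mb for widely called SNPs. On chromosome 1 it was 110 Mb and 248 Mb for SNPs selected in the same way. On 16 of the 19 chromosomes the order was the other way round, as on chromosome 3, with 80.3 Mb and 67.9 Mb. On each of these 16 chromosomes the length listed in the paper lay between the 2 values. The SNPs with many missing plants thus reached past the listed end there, and the widely called SNPs did not. On chromosomes 1, 2 and 4 both values lay within the listed length. No source used here names the genome build of these positions, nor whether both kinds of SNPs were placed on the same one. The cause of the difference was not tested. Positions below are those of the table.

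Heterozygosity of the sparsely called SNPs was 25.0% ± 3.65 of calls per plant (SD, n = 60), slightly below the 26.5% ± 3.96 at SNPs of the same kind on the other chromosomes. It ranged over plants from 13.3% in PaPe63 to 31.0% in PaPe5, with a median of 25.5%. Without the 4 plants above the lowest value was 18.1% in PaPe6 and the mean 25.6% ± 2.78. The difference between chromosome 2 and the other chromosomes was -1.51 percentage points (SD over plants 0.699), and 58 of 60 plants had the lower value on chromosome 2. In a two-sided paired sign-flip permutation test over plants the adjusted p was 2e-05, from the smallest p that 100000 resamples can give. This p covers the spread over plants at fixed SNPs, and not the spread between chromosomes or sets of SNPs. With all 90 progeny columns the difference was -0.439 percentage points and was no longer called (permutation p = 0.0734). Over SNPs with 29 to 60 missing plants alone the difference was smaller, at -0.71 percentage points. Chromosome 2 ranked the fifth lowest of the 19, whose values ran from 23.2% on chromosome 11 to 28.1% on chromosome 1. The 3 plants lowest in heterozygosity, PaPe63, PaPe89 and PaPe6, had no call at 27.1%, 25.3% and 45.8% of the SNPs, while the 3 highest had no call at 2.89% to 3.36%. PaPe63 and PaPe89 belong to the 4 plants above, of which PaPe52 and PaPe76 had 18.2% and 19.4% heterozygous calls with 9.84% and 7.61% of the SNPs without a call. The part of missing calls in this spread was not tested.

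Against the widely called SNPs of the same chromosome (23.1% ± 4.63), heterozygosity of the sparsely called SNPs was 1.85 percentage points higher (SD 6.49). The direction held in 43 of 60 plants, with an adjusted p of 0.0319 in the same permutation test over the 2 comparisons. Within the sparsely called SNPs the share of heterozygous calls was 26.3% with 29 to 49 missing plants, 13.1% with 19 to 28 and 0.833% with 81 or more. Pa was heterozygous at 22.4% of 9598 called sparsely called SNPs and Pe at 26.2% of 9906.

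Along the first 105 Mb the window means of heterozygosity ranged from 15.9% to 32.7%. The highest values were at 100 to 105 Mb (32.7% ± 6.75), 5 to 10 Mb (30.8% ± 4.95) and 70 to 75 Mb (30.7% ± 5.87), with the SD over 60 plants. In the first 105 Mb the lowest were at 50 to 55 Mb (15.9% ± 4.94), 85 to 90 Mb (16.0% ± 4.71) and 55 to 60 Mb (17.9% ± 5.63). Beyond 105 Mb windows held at most 56 SNPs. The lowest values over the whole chromosome were 0% from only 9 calls at 120 to 125 Mb, 11.2% ± 7.20 at 110 to 115 Mb and 12.3% ± 18.7 at 185 to 190 Mb.

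The windows high in heterozygosity were those with many SNPs heterozygous in both parents. Such SNPs made up 17.8%, 25.5% and 14.2% of the windows at 100 to 105, 5 to 10 and 70 to 75 Mb, and 6.40%, 4.69% and 4.65% of those at 50 to 55, 85 to 90 and 55 to 60 Mb. Over the first 21 windows the correlation of this share with heterozygosity was 0.77 (a description, since both come from the same SNPs). Without these SNPs the window values still ranged from 12.4% at 50 to 55 Mb to 23.8% at 100 to 105 Mb.

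**Figure D2:**
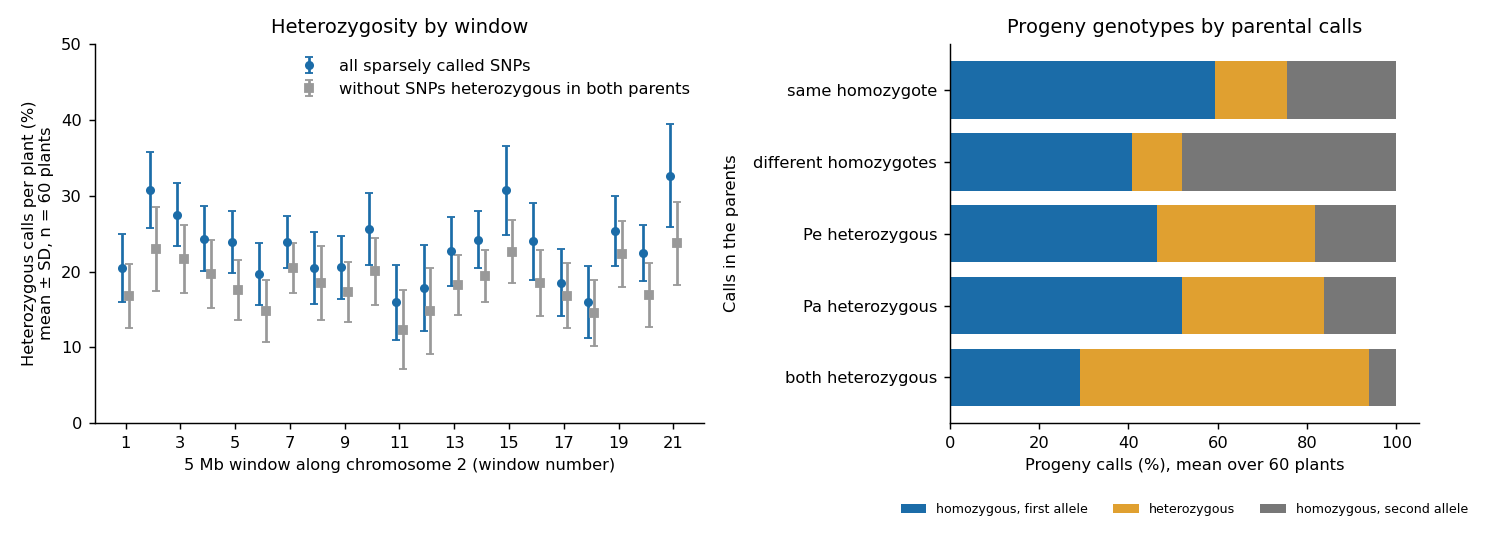
Left, heterozygous calls per plant in the first 21 windows of 5 Mb (mean ± SD, n = 60 plants), for all sparsely called SNPs and without those heterozygous in both parents. Right, progeny genotypes at sparsely called SNPs by the calls of the parents, where the first allele is that of the homozygous parent (of Pa where both are homozygous) or the first listed allele where both are heterozygous. SNPs with different homozygous parents had 11.1% heterozygous progeny calls, the lowest share of the 5 classes.

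The parental calls sort the SNPs by the progeny genotypes that Mendelian transmission allows. Both parents were homozygous for the same allele at 3624 sparsely called SNPs (35.4%), against 42.2% on the other chromosomes, and only that homozygote is allowed. The progeny held it in 59.4% ± 7.39 of calls, with 16.0% ± 3.34 heterozygous and 24.6% ± 5.38 homozygous for the allele called in neither parent (SD, n = 60 plants). Pa and Pe were different homozygotes at 2417 SNPs (23.6%), where only heterozygotes are allowed. There 11.1% ± 2.74 of progeny calls were heterozygous, 40.9% ± 10.9 were homozygous as Pa and 48.0% ± 11.3 homozygous as Pe.

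Where 1 parent was heterozygous, most calls were of an allowed class. At 1298 SNPs heterozygous in Pe only, 35.4% ± 9.58 of progeny calls were heterozygous, 46.4% ± 8.46 were homozygous as Pa and 18.2% ± 3.98 were the homozygote that is not allowed. At 970 SNPs heterozygous in Pa only the shares were 31.8% ± 7.78, 51.9% ± 8.03 and 16.3% ± 3.69. SNPs heterozygous in both parents (1158) had 64.7% ± 15.3 heterozygous calls, with 29.1% ± 8.77 and 6.25% ± 7.86 of the homozygotes. A further 779 SNPs had no call in 1 or both parents.

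Over the 9467 sparsely called SNPs with both parents called, 58.0% ± 3.10 of progeny calls were of an allowed class, against 60.1% ± 1.80 on the other chromosomes. Both shares include SNPs heterozygous in both parents (1158 of the 9467), where every genotype is allowed and all calls count. The share varied along the first 105 Mb from 46.9% at 60 to 65 Mb to 70.4% at 5 to 10 Mb. These windows also had the highest and the lowest share of SNPs with different homozygous parents in the first 105 Mb, at 44.6% and 6.43%. The share with the same homozygote in both was 19.6% at 60 to 65 Mb and 47.7% at 5 to 10 Mb, within a range of 18.6% to 56.8%. SNPs heterozygous in both parents made up 6.99% and 25.5% of these 2 windows. At 47.9% of all sparsely called SNPs the 2 most frequent progeny classes were opposite homozygotes, and 1243 SNPs had no heterozygous progeny call.

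Departures from 1:1 were tested where exactly 1 parent was heterozygous, with exact two-sided binomial tests of heterozygotes against the allowed homozygote. Of 2230 sparsely called SNPs with at least 20 such calls, 902 (40.4%) had too few heterozygotes and 291 (13.0%) too many, at an adjusted p under 0.05 (Benjamini-Hochberg over the 24737 SNPs tested in the whole table). Over that whole table, which includes chromosome 2 and the widely called SNPs, the shares were close to these, at 37.4% and 14%. SNPs of the same kind on the other chromosomes gave 32.1% and 16.3%. Against these, chromosome 2 had a higher share with too few heterozygotes and a lower share with too many. This difference was not tested. The widely called SNPs of chromosome 2 gave 68.0% and 0.372%. Without PaPe52, PaPe63, PaPe76 and PaPe89, 1164 of 2217 sparsely called SNPs departed in either direction, against 1193 of 2230 with them. SNPs within a cluster share fragments, so these are counts of SNPs and not of independent loci.

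Too few heterozygotes were called at 45.1% of 962 SNPs heterozygous in Pa and at 36.9% of 1268 heterozygous in Pe. Too many were called at 9.25% and 15.9%. By window of the first 105 Mb, the share with too few ranged from 25.7% at 100 to 105 Mb to 85.7% (18 of 21 SNPs) at 50 to 55 Mb. The share with too many reached 28.2% at 5 to 10 Mb and 27.5% at 100 to 105 Mb, and was 0% in both windows between 50 and 60 Mb. Of the 47 SNPs tested beyond 105 Mb, 42 had too few heterozygotes and 0 too many.

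Among SNPs with too few heterozygotes, the strongest departure was at position 96961630 (T/A), where Pa was T/T and Pe was heterozygous. No progeny plant was heterozygous, while 52 were T/T and 7 were A/A (exact binomial, adjusted p = 1.74e-13). At position 71944886 (G/A, heterozygous in Pe) 0 plants were heterozygous, 50 were G/G and 9 were A/A (exact binomial, adjusted p = 5.36e-13). At position 1747186 (A/G, heterozygous in Pe) 1 plant was heterozygous, 54 were A/A and 5 were G/G (exact binomial, adjusted p = 8.93e-13). All 3 had no call in 21 or 22 of the 92 columns and so belong to the subset with few missing plants. Their second class was the homozygote that the parental calls do not allow.

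In the other direction, 56 plants were heterozygous at position 72060862 (A/G), with 2 A/A and 2 G/G, Pa being A/A and Pe heterozygous (exact binomial, adjusted p = 1.84e-12). Position 103341633 (A/T), heterozygous in Pa, had the same numbers, with 56 heterozygous, 2 A/A and 2 T/T plants, and so the same p. At position 11742878 (C/A), heterozygous in Pe, 54 plants were heterozygous, 2 were A/A and 4 were C/C (exact binomial, adjusted p = 4.79e-12). These SNPs had no call in 29 or 30 columns. Both kinds of departure thus reached almost complete absence of 1 expected class, at SNPs of different missing-call subsets.

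LD between sparsely called SNPs fell with distance. Over the first 105 Mb and with 1 SNP per 5 kb, mean r2 was 0.186 below 5 kb (285 pairs), 0.150 at 100 to 500 kb, 0.113 at 1 to 2 Mb, 0.074 at 2 to 5 Mb and 0.048 at 5 to 10 Mb. At 20 to 50 Mb it was 0.029, close to the 0.026 between chromosomes. Chromosome 3 followed nearly the same course (0.114 at 1 to 2 Mb, 0.074 at 2 to 5 Mb), whereas chromosome 1 fell faster (0.094 and 0.050). These are means over pairs that share SNPs and plants, so no test was made.

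**Figure D3:**
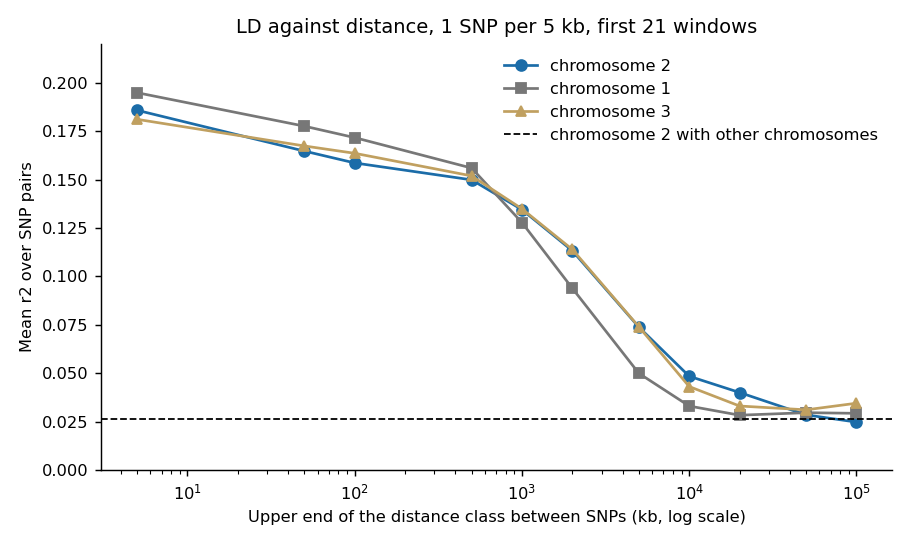
Mean r2 between sparsely called SNPs of chromosomes 2, 1 and 3 against distance (upper end of each distance class, log scale), 1 SNP per 5 kb in the first 105 Mb; the dashed line is the mean between chromosome 2 and other chromosomes, 0.026. Chromosome 2 stays above the line up to the class of 20 to 50 Mb, which is at 0.029.

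Even between neighbours LD was a mixture of strong and absent. Adjacent SNPs within a cluster had a mean r2 of 0.519 and a median of 0.411 (7350 pairs); r2 was at least 0.8 in 43.6% of them and under 0.1 in 32.2%. At 5 to 50 kb 14.1% of pairs had an r2 of at least 0.5, while the median was 0.031.

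LD also differed between parental classes. For pairs under 1 Mb, mean r2 was 0.275 between SNPs with different homozygous parents and 0.213 between SNPs with the same homozygote in both parents. Between these classes it was 0.074. Within each class the medians were also low, at 0.058 and 0.036. SNPs heterozygous in 1 parent were tied more to the different-homozygote SNPs (0.217 for Pa, 0.190 for Pe) than to the same-homozygote SNPs (0.094 and 0.103).

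Pairs of SNPs heterozygous in both parents were an exception in reach. Their mean r2 was 0.282 under 1 Mb and still 0.226 beyond 20 Mb. Without PaPe52, PaPe63, PaPe76 and PaPe89 these values were 0.118 and 0.036, so the long-range LD of this class rested on these 4 plants. For the other same-class pairs mean r2 beyond 20 Mb was 0.022 to 0.025 with all 60 plants.

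Within 5 Mb windows the mean r2 was 0.108 over 177243 pairs, with a median of 0.021, and the mean was 0.126 without the 4 plants. It was highest at 75 to 80 Mb (0.198), 20 to 25 Mb (0.131) and 5 to 10 Mb (0.129). The lowest values were at 105 to 110 Mb (0.021), 160 to 165 Mb (0.024) and 170 to 175 Mb (0.030), each from at most 18 SNPs. In the first 105 Mb the lowest were 0.045 and 0.048, in the windows at 50 to 55 and 55 to 60 Mb, which were also the windows with the fewest SNPs.

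Runs of adjacent windows whose mean r2 was at least 2 times the mean between chromosomes formed 4 blocks. They spanned 0 to 25 Mb, 30 to 50 Mb, 55 to 70 Mb and 70 to 105 Mb, and held 19 of the 45 windows. Only the block at 70 to 105 Mb had values above 0.081 between all its neighbours, up to 0.131. Without the 4 plants above the mean between chromosomes, and with it the limit, was lower (0.021 against 0.026). The first 105 Mb then formed 3 blocks, at 0 to 25, 25 to 50 and 50 to 105 Mb, and 4 short runs appeared beyond 105 Mb, where few SNPs were left. The part of the lower limit in this change was not separated from that of the plants.

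To follow chromosome segments in each plant, the first principal component of the calls was taken in each window with at least 10 SNPs, and r2 between components was computed over 60 plants. With all sparsely called SNPs the windows between 75 and 95 Mb formed the tightest group, with r2 of 0.90 to 0.97. The windows between 30 and 45 Mb had r2 of 0.85 to 0.92. Components of chromosome 2 and of other chromosomes had a median r2 of 0.009, and the 99th percentile was 0.131.

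The share of plants whose component changed sign between adjacent windows, folded at 50%, was used as a measure of recombination. It counts every change of sign and does not separate crossovers from other changes. In the first 105 Mb it ranged from 0 of 60 plants between the windows at 30 to 35 and 35 to 40 Mb (Wilson 95% interval 0 to 6.02%) to 29 of 60 (48.3%, 36.2 to 60.7%) between those at 10 to 15 and 15 to 20 Mb. At this last boundary, which lies inside the LD block at 0 to 25 Mb, the SNPs with different homozygous parents alone gave 7 of 60 plants (11.7%, 5.77 to 22.2%), and those with the same homozygote in both gave 27 of 60 (45%, 33.1 to 57.5%). From the 75 to 80 Mb window to that at 90 to 95 Mb, 3, 1 and 2 plants changed at the 3 boundaries. At 3 of the 20 boundaries, at 15, 25 and 30 Mb, the interval held 50%, the value of unlinked segments. A value of 50% is also reached where the component passes from following 1 parent's chromosomes to following the other's. These were not separated. At the 3 boundaries r2 between the components was 0.077, 0.009 and 0.147, against a 99th percentile of 0.131 with other chromosomes. The boundary at 70 Mb had 22 of 60 plants (36.7%, 25.6 to 49.3%). The median over these 20 boundaries was 14.2%, and that over all 25 was 18.3%, or 16.1% without the 4 plants. At 105 Mb, where the SNP number drops, 29 of 60 plants changed. All these components pool the parental classes, whereas crossovers in a parent can be followed only at SNPs heterozygous in it. With SNPs heterozygous in Pe only the median was 31.7% over 20 boundaries. With those heterozygous in Pa only it was 40% over 18 boundaries.

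The SNPs with different homozygous parents gave the longest run of windows with few sign changes. From 70 to 100 Mb their components kept 1 sign in 51 of 60 plants, changed once in 7 plants and more often in 2. Adjacent windows there had r2 of 0.80 to 0.96. At 100 Mb this ended, with 23 of 60 plants changed (38.3%, 27.1 to 51.0%) and r2 of 0.18. The same-homozygote SNPs showed the reverse at this boundary, with 5 of 60 plants changed (8.33%, 3.61 to 18.1%) and r2 of 0.88 between the windows at 95 to 100 and 100 to 105 Mb. By the parental calls only 1 progeny genotype is allowed at SNPs of either class. Their sign changes, or the lack of them, therefore cannot be read as a count of crossovers in a parent.

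Same-homozygote SNPs joined windows that were not neighbours. The component at 50 to 55 Mb had r2 of 0.86 with that at 0 to 5 Mb and 0.74 with that at 5 to 10 Mb, against 0.07 and 0.14 with the windows before and after it. The component at 25 to 30 Mb had r2 of 0.89 with that at 55 to 60 Mb and 0.79 with that at 45 to 50 Mb, against 0.01 and 0.03 with its neighbours. With all SNPs the window at 25 to 30 Mb likewise had its highest r2 with those at 55 to 60 (0.82) and 50 to 55 Mb (0.80). Within a window the 2 parental classes had components with r2 of 0.27 at the median and between 0.001 and 0.70 over 21 windows.

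**Figure D4:**
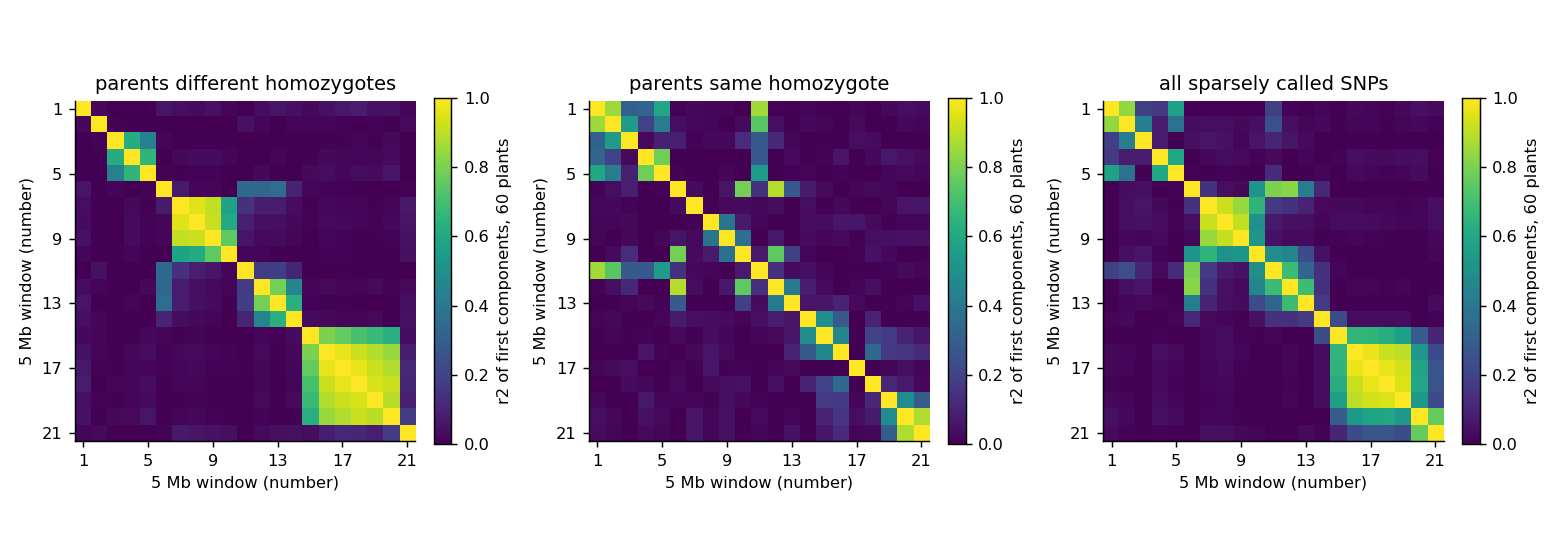
r2 over 60 plants between the first components of the first 21 windows of 5 Mb, for SNPs with different homozygous parents, for SNPs with the same homozygote in both parents and for all sparsely called SNPs. Windows 15 to 20 form a bright block for different homozygotes, whereas window 11 of the same-homozygote panel is bright with window 1 (0.86) and not with its neighbours.

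The best LD partner of a SNP was the SNP with the highest r2 among 7279 sparsely called SNPs of chromosomes 1 to 19, taken at 1 per 100 kb. Of 944 chromosome 2 SNPs, 463 (49.0%, Wilson 95% interval 45.9 to 52.2%) had it on chromosome 2, which held 13.0% of the SNPs compared. The same share was 69.2% on chromosome 1 and 56.2% on chromosome 3. Linked SNPs share plants and fragments, so such intervals are too narrow. Chromosome 1 held the best partner of 17.3% of the chromosome 2 SNPs, with 15.7% of the SNPs compared.

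Partners on chromosome 2 were mostly close. The median distance was 1.83 Mb, 66.5% lay within 5 Mb, and 75 (16.2%) lay more than 20 Mb away. The share on chromosome 2 was 58.6% of 712 SNPs with 29 to 49 missing plants (median best r2 0.683) and 19.8% of 232 SNPs with 19 to 28 (median 0.310). Within the first 105 Mb these shares were 59.2% and 18.3%, so the gap between the subsets was also present there.

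Most of the strong partners on other chromosomes were found at SNPs that nearly all plants carried as heterozygotes. At an r2 of at least 0.8, 74 SNPs had the partner elsewhere and 190 on chromosome 2. Among the 74, 59 pairs (79.7%) had at least 50 heterozygous plants at 1 or both SNPs, against 2 of the 190. An example is position 1401156 (C/T), which matched position 4716647 of chromosome 1 (G/A) with an r2 of 1. All 4 parental calls were heterozygous, 55 of 60 plants were heterozygous at both, 3 were C/C with G/G and 2 were T/T with A/A. Without PaPe52, PaPe63, PaPe76 and PaPe89, 269 of 306 SNPs (87.9%) with an r2 of at least 0.8 had their partner on chromosome 2, against 72.0% with these plants.

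In 3 of the 31 windows with at least 5 SNPs tested, more SNPs had their best partner on 1 other chromosome than on chromosome 2. They all lay beyond 105 Mb. At 115 to 120 Mb the partner of 7 of 12 SNPs was on chromosome 1, and that of 2 on chromosome 2. At 160 to 165 Mb chromosomes 6 and 14 each held 2 of 7 partners and chromosome 2 held 1. At 170 to 175 Mb chromosome 1 held 3 of 8 and chromosome 2 held 0. Chromosome 2 only tied with other chromosomes at 105 to 110, 110 to 115, 130 to 135, 140 to 145 and 165 to 170 Mb. It led with 2 of 5 at 185 to 190 and at 195 to 200 Mb. Over all SNPs tested beyond 105 Mb, 20.2% had the best partner on chromosome 2 and 22.8% on chromosome 1. The largest missing-call subset had only 22 SNPs beyond 105 Mb, against 228 of the second subset. Within the first 105 Mb, 18.3% of the second subset and 59.2% of the largest had the best partner on chromosome 2. The low share beyond 105 Mb was thus close to that of the second subset before it. The part of position, apart from that of missing calls, was not tested. In all 21 windows of the first 105 Mb chromosome 2 was the most frequent single chromosome, from 34.4% at 35 to 40 Mb to 70% at 5 to 10 Mb.

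**Figure D5:**
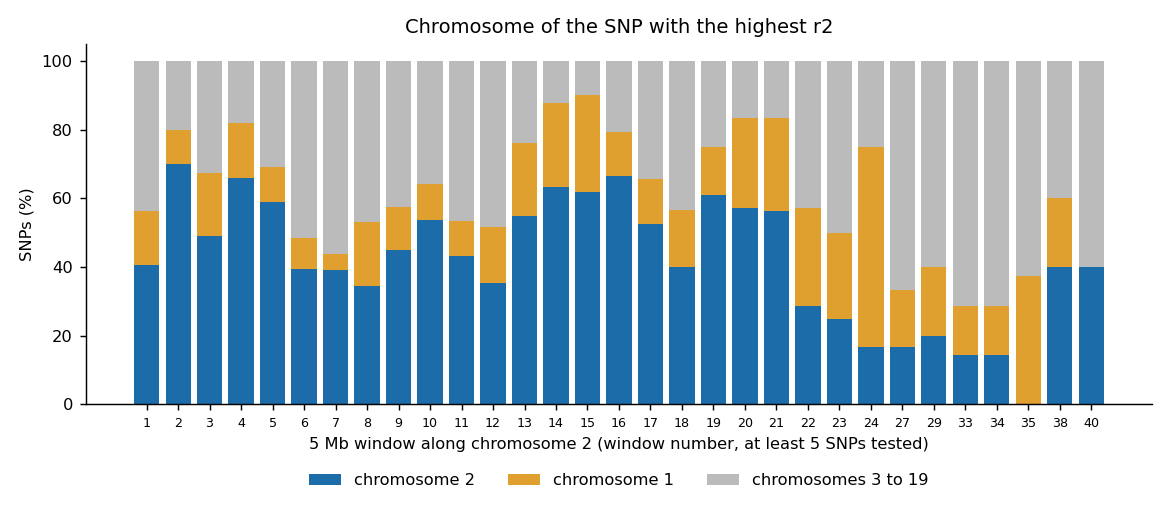
Chromosome that held the SNP with the highest r2, as percent of the sparsely called SNPs tested in each window of 5 Mb with at least 5 such SNPs. Chromosome 2 is the most frequent in windows 1 to 21, and chromosome 1 holds 7 of 12 partners in window 24.

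Of these 3 windows, that at 115 to 120 Mb had the pair with the highest r2. Position 117856050 (A/T, T/T in both parents) and position 110127510 of chromosome 1 (G/T, G/G in both parents) had an r2 of 0.803 over 60 plants. Of the plants, 32 were A/A and heterozygous at the partner and 24 were T/T and G/G, with 4 in other classes. The component of the whole window had r2 of 0.704 with that of chromosome 1 at 110 to 115 Mb, and at most 0.059 with any other window of chromosome 2. The best pairs of the other windows were weaker. Position 162195626 (C/T) reached 0.443 with position 20244665 of chromosome 6 over 44 plants, of which 37 shared 1 class. Position 173671787 (A/C) reached 0.388 with position 6703212 of chromosome 7 over 40 plants, spread over 7 of the 9 possible classes.

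By components, 7 of 29 windows had a higher r2 with a window of another chromosome than with any of chromosome 2, but only 2 of them reached 0.5. Besides that at 115 to 120 Mb this was the window at 65 to 70 Mb, with r2 of 0.619 to chromosome 1 at 85 to 90 Mb and 0.227 to the window at 70 to 75 Mb. Its same-homozygote SNPs had 0.656 to the same segment of chromosome 1, whereas its different-homozygote SNPs had 0.633 to the neighbouring window at 60 to 65 Mb.

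Several such ties appeared only when the parental classes were taken apart. Among different-homozygote SNPs the window at 5 to 10 Mb had r2 of 0.840 with chromosome 17 at 10 to 15 Mb and at most 0.062 within chromosome 2. Same-homozygote SNPs of this window instead had 0.855 with the window at 0 to 5 Mb. The different-homozygote SNPs at 10 to 15 Mb had 0.689 with chromosome 1 at 55 to 60 Mb and 0.620 with the next window of chromosome 2. Those at 25 to 30 Mb had 0.528 with chromosome 1 at 50 to 55 Mb, and those at 0 to 5 Mb had 0.516 with chromosome 3 at 0 to 5 Mb. The different-homozygote components at 5 to 10 and 0 to 5 Mb came from only 36 and 25 SNPs. Of the 36, 22 lay at 7 to 8 Mb.

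Among same-homozygote SNPs the window at 80 to 85 Mb had r2 of 0.690 with chromosome 15 at 25 to 30 Mb and at most 0.062 within chromosome 2. Different-homozygote SNPs of the same window had 0.964 with their neighbour at 85 to 90 Mb. The window at 30 to 35 Mb had 0.637 with chromosome 13 at 25 to 30 Mb by same-homozygote SNPs, and 0.951 with its neighbour at 35 to 40 Mb by different-homozygote SNPs. The same-homozygote components at 80 to 85 and 30 to 35 Mb held only 17.4% and 10.3% of the variance, from 80 and 90 SNPs. Without the 4 plants above each of these windows kept the same partner segment, with r2 of 0.531 to 0.854.

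Segments of 1 Mb were compared in the same way, and their partner segments were not always those of their window. With all SNPs 2 of 110 segments had an r2 of at least 0.5 that was higher with another chromosome than within chromosome 2, namely 4 to 5 Mb with chromosome 8 at 7 to 8 Mb (0.726) and 52 to 53 Mb with chromosome 4 at 22 to 23 Mb (0.583). By parental class there were 6 of 77 segments for different homozygotes and 6 of 94 for same homozygotes. The closest was 7 to 8 Mb with chromosome 17 at 15 to 16 Mb (r2 = 0.931 from 22 different-homozygote SNPs, against at most 0.142 within chromosome 2). Next to it in size, 30 to 31 Mb had 0.900 with chromosome 1 at 85 to 86 Mb, but also 0.881 within chromosome 2. The segment at 84 to 85 Mb was tied to chromosome 15 at 5 to 6 Mb by same-homozygote SNPs (0.803) and to chromosome 19 at 8 to 9 Mb by different-homozygote SNPs (0.646). By same-homozygote SNPs the window at 80 to 85 Mb was instead tied to chromosome 15 at 25 to 30 Mb. By different-homozygote SNPs the window at 5 to 10 Mb was tied to chromosome 17 at 10 to 15 Mb.

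Single pairs that did not rest on a few plants were also found. They were taken after the values were seen, as the strongest best partners elsewhere with at least 10 plants in the second class at both SNPs, which 15 of the 74 pairs met. Position 5803269 (T/A) and position 3232838 of chromosome 8 (T/C), heterozygous in both parents, matched in all 60 plants, with 35 T/T at both and 25 heterozygous at both. At position 59593285 (T/A, A/A in Pa and T/T in Pe) 33 plants were T/T and 27 A/A, and the same 33 were G/G and the same 27 heterozygous at position 53732321 of chromosome 4 (G/A, heterozygous in Pa). Position 39805741 (C/T, heterozygous in Pe) and position 6872492 of chromosome 14 (G/T, heterozygous in Pe) differed in 1 of 60 plants (r2 = 0.941). At position 24900300 (A/C, A/A in both parents) and position 25949604 of chromosome 13 (C/G, heterozygous in both) 56 of 57 plants fell into 2 combined classes (r2 = 0.931).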

How the data were processed

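GBS libraries were made from leaf DNA with HinP1I or ApeKI, each paired with HaeIII, on plates 1 and 2. The authors mapped reads with Bowtie 2, called SNPs with TASSEL-GBS and deposited 1 merged table of genotype letters for 92 plants. By its name the table was imputed from nearest neighbors and filtered on minor allele frequency (0.05). Which calls were imputed, the read depth and the genome build are not given in the sources used here. No p-value or interval covers depth.

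Letters were turned into dosages of 0, 1 or 2, without filling in missing calls. Progeny with no call at more than 50% of the SNPs were left out. r2 needed at least 20 plants called at both SNPs, and named pairs at least 40. The components were taken from centered dosages. Named windows were the 3 most extreme in SNP number, heterozygosity and LD, and those where 1 other chromosome held more best partners than chromosome 2. Named SNPs were the best pair of each such window and the 3 lowest adjusted p in each direction. Further pairs were added after their values were seen.

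Members, lists and tests were chosen with earlier results of these data known. Alternatives concerned SNP spacing, minor allele frequency, heterozygous calls, limits and plants. The chromosome of the best partner, the sign changes of components and the adjusted 1:1 test were tried on simulated data. The simulated genotypes came from a single segregating parent. The other steps were not tried in this way. Versions were scipy 1.17.1, pandas 2.3.3, numpy 2.4.6 and Python 3.11.15. The table holds no entries of unknown columns. Sequences, genes and phenotypes were not analysed here.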

Additional observations from a re-analysis of the deposited data

How the results depend on the processing

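No paired analysis was possible because the plates that share numbers across the enzyme pairs are merged into 1 table without library columns; this concerns libraries only, as heterozygosity was compared within plants; leaving out a library was not run for the same reason. Alternatives that left out the 5 plants with many missing calls, kept the first 105 Mb only, took single parental classes of homozygotes, took 29 to 60 missing plants, used window components or formed blocks without PaPe52, PaPe63, PaPe76 and PaPe89 were chosen after seeing the data. Of 44 alternatives, 26 were counted as leaving their result in place. These included changes in size, such as a heterozygosity difference of -0.71 in place of -1.51 percentage points. Another was a median of 31.7% in place of 18.3% of plants that changed sign. The causes of these and the other changes were not tested unless stated.

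The median of 39 SNPs per 5 Mb window became 18 in clusters, which count neighbours once, and 340 in the first 105 Mb, which leaves out the thin windows. The heterozygosity difference of -1.51 percentage points was -0.439 with all 90 progeny columns (permutation p = 0.0734) and ranged from -2.36 to -0.71 under the other alternatives, each with a permutation p of 1e-05, the smallest possible. The 1193 SNPs that departed from 1:1 became 269 with 1 SNP per cluster, of 480 in place of 2230 tested. The mean r2 of 0.108 within windows compares with a median of 0.021.

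The 4 blocks became 7 at 1.5 times the mean between chromosomes, and 7 without PaPe52, PaPe63, PaPe76 and PaPe89. The 49.0% of SNPs with the best partner on chromosome 2 became 54.9% with 1 SNP per 20 kb, 39.2% with heterozygous calls as missing, 54.2% without the 4 plants, 53.8% without the 5 plants with many missing calls and 53.0% in the first 105 Mb. The 3 windows in which 1 other chromosome held more partners than chromosome 2 became 7 with 1 SNP per 20 kb, 7 with heterozygous calls as missing, of which 2 lay in the first 105 Mb, 5 without the 4 plants and 7 by components. The median share of plants that changed sign was 18.3% over all adjacent windows. It was 31.7% with SNPs heterozygous in Pe only, 40% with SNPs heterozygous in Pa only and 36.7% with same-homozygote SNPs. The 31.7% was counted as leaving the result in place because the change lay within the SD over adjacent pairs. That SD is the spread between boundaries of 1 chromosome and does not measure the uncertainty of the median.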
